A study of Mus musculus with 22 samples.

Results

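Genes that mark dendritic cell (DC) subsets and DC maturation were followed in CD11c+CD8α− DCs sorted from the mouse pancreas, at steady state and in culture. The list holds 50 names of 49 genes, since Dcir2 is an older name of Clec4a4. It was divided by role into 9 genes of DCs in common, 11 of the cDC1 subset, 8 of the CD8α−/cDC2 subset, 9 of plasmacytoid DCs and 12 of mature DCs. Of the 49 genes, 41 were measured by a probe set that names the gene alone, out of 18193 such genes on the array. They were 9, 8, 7, 8 and 9 in the same order of roles. Each gene is given by the brightest of its probe sets, by the mean over all 22 arrays. Ifi205, Ccl19 and Lamp3 are named only by probe sets shared with other genes and were left out. Clec9a, Tlr11, Clec4a4, Runx2 and Cacnb3 were not analysed here.

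DCs take up antigen, carry it to lymph nodes and present it to T cells. Classical DCs depend on the cytokine receptor Flt3 and fall into a cDC1 and a cDC2 subset. The cDC1 subset needs Batf3 and cross-presents antigen to CD8 T cells. In the cDC2 subset Notch2 signalling through Rbpj takes part in differentiation, as does Zeb2. Plasmacytoid DCs are a separate lineage set by Tcf4 and known for making type I interferon. When a DC matures it lowers uptake, rearranges its actin with fascin and migrates. DCs taken out of a tissue are known to mature in culture without an added stimulus.

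The cells came from pre-diabetic NOD mice, the strain that develops autoimmune diabetes, and from non-diabetic C57BL/6 mice, all 5 weeks old and female. CD45-enriched pancreas cells were sorted by flow cytometry as CD11c+ and CD8α−. Cells of 10 pancreases were pooled for a sample, and the sources do not say whether PBS and LPS arrays of the same number, or steady state and cultured ones, hold cells of 1 pool. At steady state the sorted cells were lysed directly, on 4 C57BL/6 and 3 NOD arrays. For culture they were kept 18 hours with PBS, on 4 arrays of each strain, or with LPS, on 3 C57BL/6 and 4 NOD arrays. LPS is a bacterial cell wall component that activates DCs. The sources differ on the culture. The series text calls it another experiment, while the methods describe sorted cells divided between direct lysis and culture. Where it was another experiment, time in culture, harvest and experiment cannot be told apart. The values are log2 expression after RMA, a method that corrects background, equalises arrays and summarises the probes of a set. A difference of 1 is therefore 2-fold, and differences are given on the log2 scale with their sign. Where a pair of values is given with no strain named, C57BL/6 comes first. A gene was called at an adjusted p under 0.1 by limma, with p-values adjusted by Benjamini and Hochberg's method across the 45037 probe sets tested. All adjusted p-values given here are from that test.

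The array medians lay between 7.633 and 7.684 and the lower quartiles between 6.03 and 6.36. Itgax, which encodes CD11c, was at 11.32 ± 0.05 (SD, n = 4) in C57BL/6 and 10.89 ± 0.06 (SD, n = 3) in NOD at steady state. Cd8a was at 7.22 to 7.77 and 7.63 to 7.86 on these arrays, and at 8.79 to 10.34 and 8.25 to 8.66 after PBS culture, so that this transcript was higher in cultured cells by 1.68 (SE 0.29, adjusted p = 3.66e-04) in C57BL/6 and 0.67 (SE 0.13, adjusted p = 9.79e-04) in NOD. RNA of pancreas acinar cells was bright in the sorted cells. The mean over 10 acinar genes lay between 13.2 and 13.7 on the C57BL/6 and between 12.7 and 13.7 on the NOD steady state arrays, and between 8.64 and 12.4 on the cultured arrays. Replicate 6 of C57BL/6 at steady state lay apart from the other 3 arrays in 4 members, Cst3, Dpp4, Ly75 and Naaa. Without it the steady state difference of Flt3 lost its call, at −0.31 (adjusted p = 0.157), and no other call of a member was lost in any comparison.

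**Figure D1:**
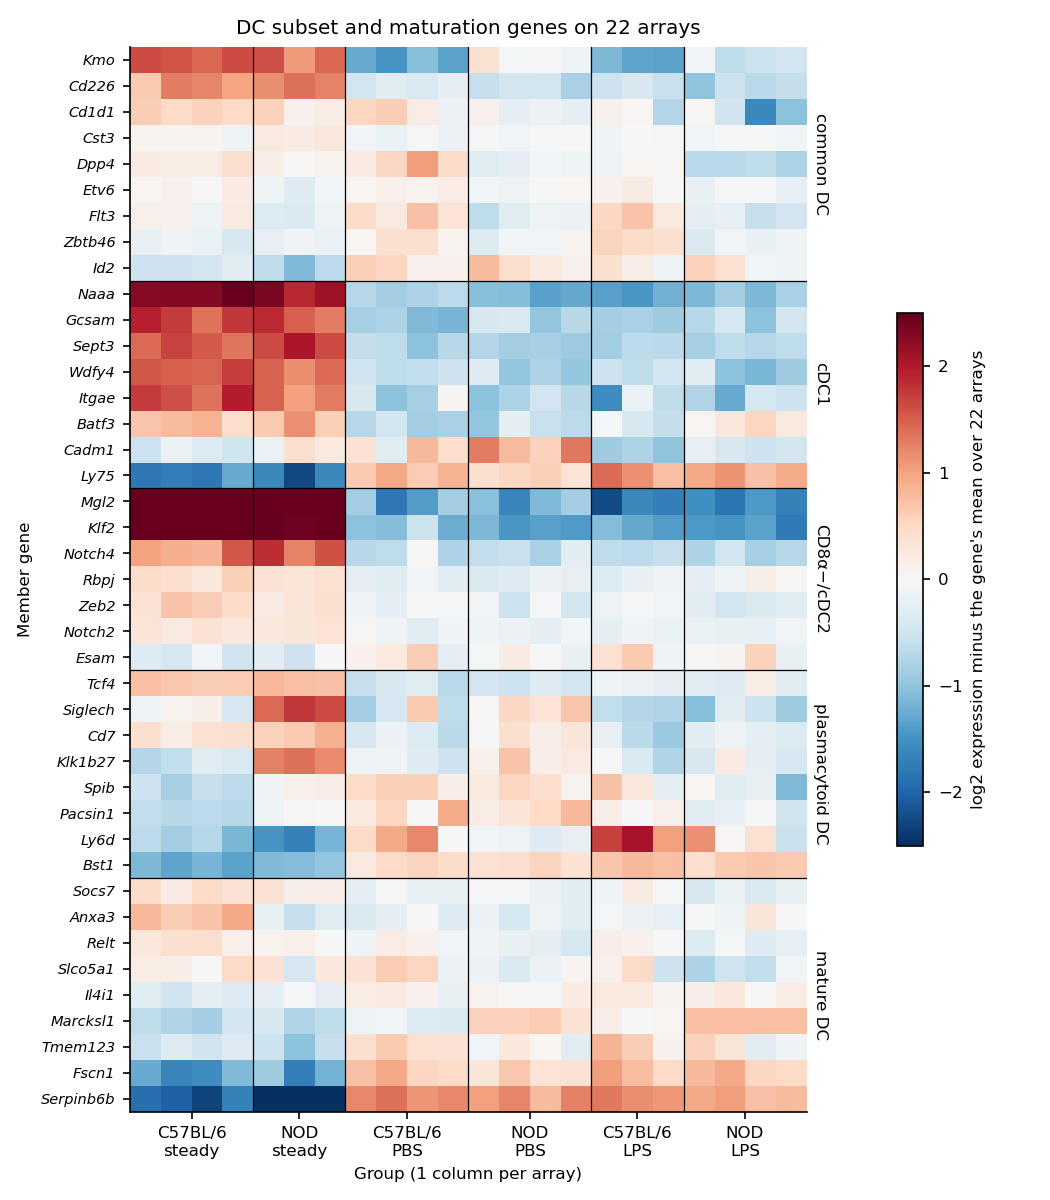
The 41 members in rows, by role, and the 22 arrays in columns, by group. Colour is log2 expression minus the mean of the gene over the arrays, and differences past 2.5 have the darkest colour. The main contrast lies between the 7 steady state and the 15 cultured arrays, with Mgl2 and Klf2 high at steady state and Serpinb6b and Ly75 high in culture.

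The first comparison asked what became of these genes in 18 hours of PBS culture. In C57BL/6 cells 15 of the 41 members rose, against 44.6% of all genes, and 19 fell, against 32.3%. In NOD cells 10 rose, against 41.6% of all genes, and 23 fell, against 30%. So large a share of all genes was called in culture that the size of a difference says more than the call. At least 2-fold higher were 7 members in C57BL/6, against 7.76% of all genes, and 7 in NOD, against 8.11%. At least 2-fold lower were 13 in C57BL/6, against 13.5% of all genes, and 13 in NOD, against 12.4%. The culture arrays of the strains are separate, and 10 members rose and 18 fell in both, of which 5 and 12 by at least 2-fold. The share of all genes that moved alike in both strains was not counted. These joint counts therefore have no background beside them. No member was called in opposite directions. Steady state and cultured arrays did not overlap in 31 of the 41 members in C57BL/6 and in 33 in NOD. Of all genes 76.9% in C57BL/6 and 71.6% in NOD were called in these comparisons. The share of all genes without overlap was not counted, so nothing particular to the members is read from the counts of members. These counts are of the brightest probe set of each gene. With the replicate number as a block, which was not shown to pair steady state with culture, Flt3, Zbtb46, Esam and Notch2 were not called in C57BL/6 and Dpp4, Notch2, Relt and Cst3 were not called in NOD. Siglech was then called lower in C57BL/6, at −0.74 (adjusted p = 9.48e-04). The median difference of the members was −0.24 in C57BL/6 and −0.32 in NOD, and over all genes it was 0.17 and 0.16.

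**Figure D2:**
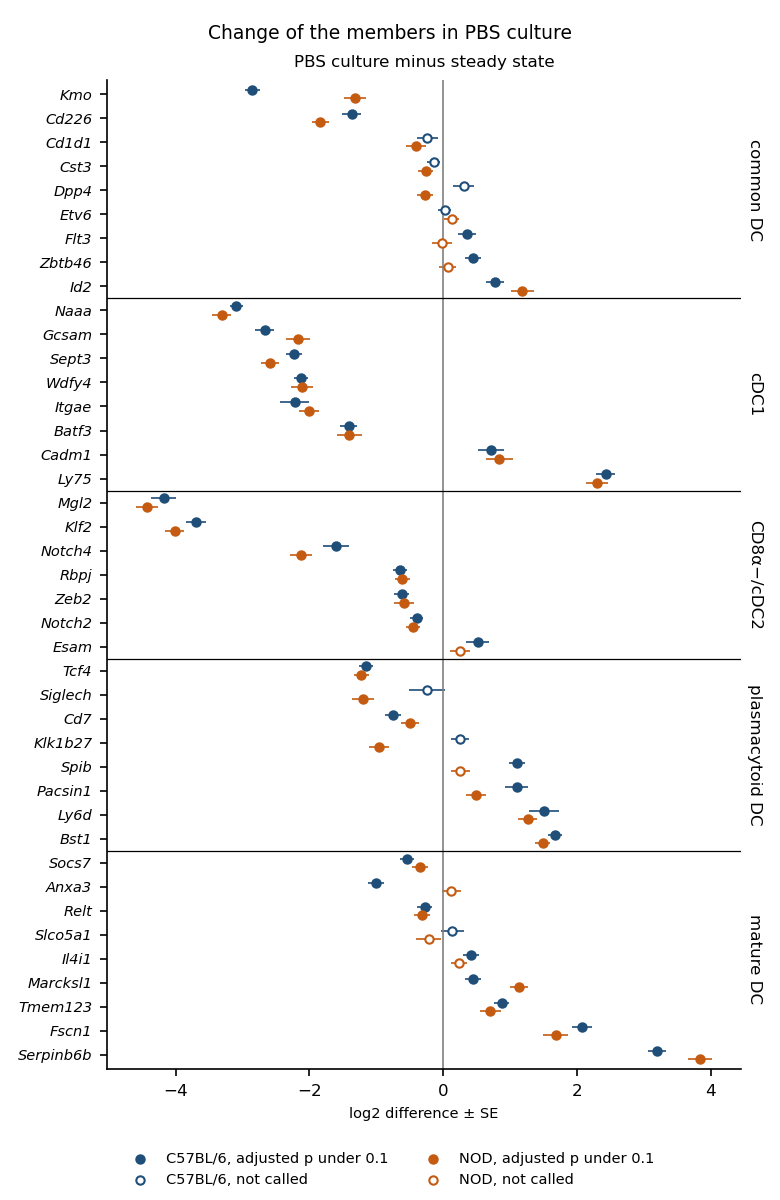
Log2 difference between PBS culture and steady state, with its SE, for each of the 41 members by role, in C57BL/6 (blue) and NOD (orange). Filled points were called. The genes of the cDC1 and CD8α−/cDC2 subsets lie mostly below 0 in both strains, down to −4.43 for Mgl2, and Serpinb6b, Fscn1 and Ly75 lie above 1.

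The CD8α−/cDC2 genes belong to the subset for which the cells were sorted. Of the 7, 6 fell in each strain, and 3 of them by at least 2-fold. Of all genes 32.3% fell in C57BL/6 and 30% in NOD, and 13.5% and 12.4% by at least 2-fold. Mgl2, a C-type lectin of cDC2s and macrophages, had the largest change of all members. It was at 12.25, 12.27, 12.04 and 11.89 on the 4 C57BL/6 steady state arrays and at 8.29, 7.38, 7.78 and 8.29 after PBS culture. In NOD it was at 12.34, 12.47 and 12.50 and then at 8.12, 7.53, 8.07 and 8.31. Every cultured array lay more than 3 log2 units below every steady state array, and the log2 difference was −4.18 (SE 0.19, adjusted p = 6.56e-09) in C57BL/6 and −4.43 (SE 0.17, adjusted p = 2.47e-09) in NOD.

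Klf2 is a transcription factor that restrains inflammatory activation. Its level was 12.71, 12.55, 12.87 and 12.68 at steady state and 8.95, 8.89, 9.44 and 8.74 after PBS culture in C57BL/6. In NOD it was 12.66, 12.41 and 12.89 and 8.86, 8.52, 8.61 and 8.56. The arrays of steady state and culture did not overlap in either strain, and Klf2 fell, at −3.70 (SE 0.15, adjusted p = 2.25e-09) and −4.02 (SE 0.14, adjusted p = 1.48e-09).

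Among the genes of the Notch pathway, the receptor Notch4 fell most. It lay at 8.14, 8.05, 7.99 and 8.70 at steady state and at 6.45, 6.51, 7.14 and 6.37 in PBS culture in C57BL/6, and at 8.99, 8.38 and 8.73 and 6.53, 6.58, 6.34 and 6.87 in NOD. The log2 difference was −1.60 (SE 0.19, adjusted p = 1.89e-05) in C57BL/6 and −2.12 (SE 0.17, adjusted p = 7.70e-07) in NOD. Another probe set of Notch4 fell alike, at −1.70 and −2.16, while the remaining, dim one, with a mean of 4.27, was called higher, at 0.58 and 0.34. Notch2, the receptor that cDC2s of the spleen and gut need, fell, at −0.40 (SE 0.10) and −0.45 (SE 0.11), and Rbpj, the factor through which Notch receptors act at −0.64 (SE 0.11) and −0.61 (SE 0.11). Zeb2, a transcription factor, fell, at −0.62 (SE 0.11) and −0.58 (SE 0.15). Esam, an adhesion molecule of endothelium and of a splenic cDC2 population, was the member of the group that did not fall. It rose in C57BL/6, by 0.51 (SE 0.17, adjusted p = 0.0181), and was at 0.25 (SE 0.15, adjusted p = 0.171) in NOD.

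A list of 12 other genes of CD8α− DCs was drawn up beside the members. It was chosen with earlier results of these data known, so its counts are no independent test. In each strain 8 of the 12 fell, against 32.3% of all genes in C57BL/6 and 30% in NOD. The median difference was −0.93 in C57BL/6 and −0.97 in NOD. The C-type lectins Cd209a and Clec10a fell, at −4.88 (SE 0.11) and −4.98 (SE 0.14) in C57BL/6 and at −4.48 (SE 0.13) and −4.60 (SE 0.12) in NOD. Relb, an NF-kB subunit, rose by 1.63 (SE 0.12) and 1.95 (SE 0.12). Irf4, a transcription factor of cDC2s, fell in C57BL/6 at −1.12 (SE 0.15) and was at −0.03 (SE 0.14) in NOD, and the difference between the strains in this change was called, at 1.09 (SE 0.21, adjusted p = 0.00478). Genes of macrophages moved with the same comparison. Of 11 macrophage genes, 7 fell in C57BL/6 and 6 in NOD and 3 rose in each, and their mean level went from between 12.5 and 12.7 to between 12.01 and 12.28 in C57BL/6 and from between 12.1 and 12.5 to between 11.74 and 12.04 in NOD. Itgax fell too, at −2.29 (SE 0.09) and −1.96 (SE 0.14). In RNA of a whole sorted population, fewer cells of a type and less RNA of the gene in each cell cannot be told apart, and the part of macrophages and acinar cells in these falls was not tested.

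Of the 8 cDC1 genes, 6 fell by at least 2-fold in both strains. Of all genes 13.5% in C57BL/6 and 12.4% in NOD were called lower by that much. Ly75 rose, and Cadm1 rose on its brightest probe set alone. Naaa, a lysosomal enzyme that breaks down fatty acid amides, fell most. In C57BL/6 it went from 12.11, 12.14, 12.13 and 12.33 to 9.12, 8.97, 9.06 and 9.19, and in NOD from 12.18, 11.71 and 11.95 to 8.78, 8.75, 8.47 and 8.56. Its log2 difference was −3.09 (SE 0.10, adjusted p = 4.85e-10) and −3.31 (SE 0.14, adjusted p = 5.43e-09), and the other 2 probe sets of Naaa fell as well.

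Gcsam encodes a signalling adaptor first known from germinal centre B cells. It was at 7.57, 7.38, 6.98 and 7.41 at steady state and at 4.80, 4.87, 4.54 and 4.47 in PBS culture in C57BL/6, and at 7.51, 7.13 and 6.93 and 5.23, 5.25, 4.66 and 4.95 in NOD. The groups did not overlap, and Gcsam fell, at −2.67 (SE 0.14, adjusted p = 2.22e-08) and −2.17 (SE 0.18, adjusted p = 1.06e-06). The cultured values lie below the lower quartile of their arrays, where whether a probe set was above background was not tested, so the size of this fall is uncertain. Sept3, a cytoskeletal GTPase, went from 9.70, 9.97, 9.82 and 9.63 to 7.68, 7.66, 7.27 and 7.597 in C57BL/6 and from 9.91, 10.30 and 9.91 to 7.54, 7.42, 7.45 and 7.38 in NOD. The arrays were again apart, and Sept3 fell, at −2.23 (SE 0.12, adjusted p = 2.90e-08) and −2.59 (SE 0.13, adjusted p = 1.91e-08).

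The other 3 that fell were Itgae, the integrin chain CD103, Wdfy4, which is needed for cross-presentation, and Batf3, the transcription factor of the subset. Itgae fell, at −2.22 (SE 0.22) in C57BL/6 and −2.01 (SE 0.16) in NOD. Wdfy4 fell, at −2.13 (SE 0.10) and −2.11 (SE 0.17), and Batf3 at −1.42 (SE 0.13) and −1.40 (SE 0.19). None of the 3 was called for a difference between the strains in this change.

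Ly75 went the other way. It encodes DEC-205, an endocytic receptor that marks cDC1s but is also known to rise on maturing DCs, and it is described per array because it was noticed after its values were seen. It lay at 6.90, 6.97, 6.90 and 7.43 at steady state and at 9.36, 9.66, 9.33 and 9.57 in PBS culture in C57BL/6, and at 7.09, 6.43 and 7.09 and 9.12, 9.22, 9.29 and 9.04 in NOD. All PBS-cultured arrays were above all steady state arrays, with a rise of 2.43 (SE 0.14, adjusted p = 3.79e-08) in C57BL/6 and 2.30 (SE 0.17, adjusted p = 3.70e-07) in NOD. For Cadm1, an adhesion molecule of cDC1s, the direction depends on the probe set. The brightest one rose, by 0.71 (SE 0.20, adjusted p = 0.00767) and 0.84 (SE 0.20, adjusted p = 0.00401), but the mean over its 4 probe sets was at −0.45 (adjusted p = 0.0526) in C57BL/6 and −0.05 (adjusted p = 0.859) in NOD. No direction of Cadm1 in culture is therefore given.

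Of 10 other cDC1 genes, 6 fell and 3 rose in each strain, with a median of −0.50 in both. This list, too, was chosen with earlier results of these data known. Xcr1, the chemokine receptor that defines the subset, fell, at −1.61 (SE 0.16) and −1.72 (SE 0.15), and Irf8, its lineage factor, at −0.82 (SE 0.13) and −0.58 (SE 0.12). Tlr3 rose by 1.65 (SE 0.10) and 2.48 (SE 0.11). The rise of Cd8a was given above, and the sort had removed cells with CD8α on their surface.

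The plasmacytoid DC genes moved both ways. In C57BL/6 4 of 8 rose and 2 fell, and in NOD 3 rose and 4 fell. These are 50% and 25% in C57BL/6, against 44.6% and 32.3% of all genes. In NOD they are 37.5% and 50%, against 41.6% and 30%. Bst1, an ectoenzyme also known as CD157, was at 10.78, 10.58, 10.74 and 10.55 at steady state and 12.13, 12.38, 12.46 and 12.36 in PBS culture in C57BL/6. In NOD it was at 10.79, 10.80 and 10.91 and 12.28, 12.31, 12.44 and 12.25. It rose on every cultured array of both strains, by 1.67 (SE 0.11, adjusted p = 1.06e-07) and 1.49 (SE 0.11, adjusted p = 5.72e-07).

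Ly6d, a surface protein of lymphoid progenitors, B cells and plasmacytoid DCs, went from 8.74, 8.54, 8.68 and 8.26 to 9.88, 10.34, 10.61 and 9.42 in C57BL/6 and from 7.93, 7.71 and 8.23 to 9.33, 9.27, 9.08 and 9.20 in NOD. It rose by 1.505 (SE 0.22, adjusted p = 9.97e-05) and 1.26 (SE 0.14, adjusted p = 1.44e-05), with the lowest cultured array above the highest of steady state in each strain. Tcf4, the transcription factor that sets the lineage, went the other way. It was at 12.60, 12.53, 12.47 and 12.49 and then at 11.27, 11.46, 11.55 and 11.18 in C57BL/6, and at 12.69, 12.61 and 12.59 and then at 11.38, 11.33, 11.54 and 11.37 in NOD. Its groups did not overlap either, and it fell, at −1.16 (SE 0.11, adjusted p = 2.43e-06) and −1.22 (SE 0.11, adjusted p = 2.89e-06).

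Pacsin1, an endocytic adaptor, rose by 1.10 (SE 0.17) in C57BL/6 and 0.49 (SE 0.15) in NOD, and Cd7, a surface receptor of lymphocytes and plasmacytoid DCs, fell, at −0.75 (SE 0.12) and −0.50 (SE 0.14). Siglech, the lectin that defines mouse plasmacytoid DCs, fell in NOD, at −1.21 (SE 0.16, adjusted p = 6.88e-05), and was at −0.25 (SE 0.27, adjusted p = 0.432) in C57BL/6. Spib, an ETS transcription factor of plasmacytoid DCs and B cells, rose in C57BL/6, by 1.11 (SE 0.12, adjusted p = 1.01e-05), and was at 0.26 (SE 0.14, adjusted p = 0.125) in NOD. Klk1b27, a glandular kallikrein, fell in NOD, at −0.96 (SE 0.15, adjusted p = 2.37e-04), and was at 0.25 (SE 0.13, adjusted p = 0.124) in C57BL/6. For Siglech the difference between these changes was not called, at −0.96 (SE 0.36, adjusted p = 0.165). Of 11 other plasmacytoid DC genes, 6 rose and 2 fell in C57BL/6, and 5 rose and 3 fell in NOD. They, too, were chosen with earlier results of these data known. The largest rise was that of Irf7, an interferon-inducible factor, at 4.38 (SE 0.13) and 5.08 (SE 0.13). Bst2, which interferon also induces, rose by 2.31 (SE 0.10) and 2.60 (SE 0.11), while Tlr7 was at −0.21 (SE 0.11, adjusted p = 0.117) in C57BL/6 and −0.43 (SE 0.15, adjusted p = 0.0284) in NOD.

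Of the 9 genes of DCs in common, 3 rose and 2 fell in C57BL/6, 1 rose and 5 fell in NOD, and 6 of the 9 were under 2-fold in both strains. Of all genes 44.6% rose and 32.3% fell in C57BL/6, and 41.6% and 30% in NOD. Kmo, an enzyme of the kynurenine branch of tryptophan breakdown, fell most in C57BL/6. It went from 10.999, 10.94, 10.80 and 11.01 to 8.10, 7.90, 8.31 and 8.04 in C57BL/6 and from 10.98, 10.44 and 10.81 to 9.74, 9.32, 9.37 and 9.25 in NOD. The fall was −2.85 (SE 0.11, adjusted p = 2.12e-09) in C57BL/6 and −1.32 (SE 0.16, adjusted p = 2.95e-05) in NOD, and no PBS-cultured array of NOD was as low as any of C57BL/6.

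Cd226, an adhesion receptor of T cells, NK cells and some DCs, was at 6.05, 6.67, 6.61 and 6.38 and then 4.93, 5.13, 5.00 and 5.17 in C57BL/6, and at 6.56, 6.77 and 6.63 and then 4.82, 4.93, 4.94 and 4.57 in NOD. It fell, at −1.37 (SE 0.14, adjusted p = 4.46e-06) and −1.84 (SE 0.13, adjusted p = 3.17e-07), to levels below the lower quartile of the arrays, so that the size of the fall is again uncertain. Id2, an inhibitor of E proteins needed for cDC1s, was at 11.17, 11.17, 11.24 and 11.43 and then 12.29, 12.23, 11.79 and 11.79 in C57BL/6, and at 11.06, 10.60 and 11.05 and then 12.49, 12.12, 11.94 and 11.79 in NOD. All cultured arrays were above those of steady state, by 0.77 (SE 0.14, adjusted p = 4.39e-04) and 1.19 (SE 0.18, adjusted p = 1.55e-04).

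Flt3 was at 0.36 (SE 0.13, adjusted p = 0.0284) in C57BL/6 and −0.02 (SE 0.15, adjusted p = 0.9) in NOD. For Zbtb46, the transcription factor of classical DCs, the brightest probe set rose in C57BL/6, by 0.44 (SE 0.12, adjusted p = 0.00699), and was at 0.07 (SE 0.13, adjusted p = 0.666) in NOD. The mean over its 4 probe sets was 0.00 (adjusted p = 0.989) in C57BL/6 and −0.28 (adjusted p = 0.0286) in NOD, so that its direction, too, depends on the probe set. Cst3, the protease inhibitor cystatin C, differed by −0.14 (SE 0.10, adjusted p = 0.204) and −0.26 (SE 0.11, adjusted p = 0.0522). Dpp4, the peptidase CD26, was at 0.31 (SE 0.16, adjusted p = 0.105) and −0.27 (SE 0.12, adjusted p = 0.0593), and Cd1d1, which presents lipids to NKT cells, at −0.24 (SE 0.15, adjusted p = 0.191) and −0.41 (SE 0.15, adjusted p = 0.0309). Etv6, a repressor of the ETS family, was at 0.02 (SE 0.10, adjusted p = 0.845) and 0.13 (SE 0.12, adjusted p = 0.374), but the mean over its 2 probe sets was called higher, at 0.64 (adjusted p = 2.11e-05) and 0.63 (adjusted p = 1.68e-04). In NOD 3 of these calls ended without single arrays. Without steady state replicate 1 Cst3 was at −0.27 (adjusted p = 0.102), Dpp4 at −0.24 (adjusted p = 0.168) and Cd1d1 at −0.27 (adjusted p = 0.155). Without steady state replicate 6 Cst3 was at −0.24 (adjusted p = 0.164) and Dpp4 at −0.28 (adjusted p = 0.14), and Dpp4 was at −0.24 (adjusted p = 0.127) without PBS replicate 1 and at −0.26 (adjusted p = 0.11) without PBS replicate 2.

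Of the 9 mature DC genes, 5 rose and 3 fell in C57BL/6, and 4 rose and 2 fell in NOD. These are 55.6% and 33.3% in C57BL/6, against 44.6% and 32.3% of all genes. In NOD they are 44.4% and 22.2%, against 41.6% and 30%. The shares of the mature DC genes thus lie near those of all genes. Serpinb6b, an intracellular protease inhibitor, rose most of all members. It went from 9.10, 8.95, 8.68 and 9.29 at steady state to 12.19, 12.37, 12.09 and 12.19 in PBS culture in C57BL/6, and from 8.45, 7.80 and 8.41 to 12.02, 12.21, 11.77 and 12.24 in NOD. The cultured arrays lay close together, all well above the steady state arrays, and the rise was 3.20 (SE 0.13, adjusted p = 3.13e-09) in C57BL/6 and 3.84 (SE 0.18, adjusted p = 9.42e-09) in NOD.

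Fscn1 encodes fascin, the actin-bundling protein of the dendrites of mature DCs. It went from 11.04, 10.64, 10.72 and 11.19 to 13.03, 13.24, 12.81 and 12.78 in C57BL/6 and from 11.41, 10.59 and 11.11 to 12.59, 12.97, 12.64 and 12.66 in NOD, a rise of 2.07 (SE 0.15, adjusted p = 2.49e-07) in C57BL/6 and 1.68 (SE 0.18, adjusted p = 1.08e-05) in NOD with no overlap. Tmem123, a glycosylated membrane protein, went from 10.66, 10.89, 10.72 and 10.90 to 11.63, 11.87, 11.60 and 11.58 and from 10.67, 10.20 and 10.65 to 11.15, 11.48, 11.27 and 10.95. Its rise was smaller, 0.87 (SE 0.11, adjusted p = 2.74e-05) and 0.70 (SE 0.16, adjusted p = 0.00289), and again without overlap.

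The sequences before the start of these 3 genes are shown because they rose together in both strains. They are the 250 bases upstream of the RefSeq start in build GRCm38.p6, 5′ to 3′ on the gene's own strand, and 1 of the 2 starts listed for Tmem123 is shown. Capitals mark matches, on either strand, to GGG and CC with any 5 bases between them, a loose form of the site of NF-kB, to GAGGAA, the core of the site of PU.1, or to TGANTCA, the site of AP-1.
Serpinb6b, chr13:32965011-32965260, plus strand: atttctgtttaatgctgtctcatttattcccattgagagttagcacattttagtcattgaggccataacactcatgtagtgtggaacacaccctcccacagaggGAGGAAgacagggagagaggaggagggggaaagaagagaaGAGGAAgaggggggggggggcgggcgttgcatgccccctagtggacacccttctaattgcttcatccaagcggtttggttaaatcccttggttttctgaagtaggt
Fscn1, chr5:142960105-142960354, plus strand: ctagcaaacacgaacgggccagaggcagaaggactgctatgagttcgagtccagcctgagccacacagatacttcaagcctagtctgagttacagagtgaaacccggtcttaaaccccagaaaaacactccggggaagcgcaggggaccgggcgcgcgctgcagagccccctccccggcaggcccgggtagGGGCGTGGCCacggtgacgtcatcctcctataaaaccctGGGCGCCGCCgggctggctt
Tmem123, chr9:7763915-7764164, plus strand: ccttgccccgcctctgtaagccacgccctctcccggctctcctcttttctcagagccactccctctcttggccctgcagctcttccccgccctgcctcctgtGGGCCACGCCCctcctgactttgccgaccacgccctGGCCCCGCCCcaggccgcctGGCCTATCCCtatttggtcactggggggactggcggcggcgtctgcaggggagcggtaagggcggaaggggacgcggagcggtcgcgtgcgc
Serpinb6b held 2 matches to GAGGAA, Fscn1 2 to the loose NF-kB form and Tmem123 4 to it, of which 2 overlap, and TGANTCA was in none. Over all 32851 windows of this length in the table, the loose NF-kB form was found in 45.8%, GAGGAA in 23.3% and TGANTCA in 6.75%. No motif was in all 3 windows.

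Marcksl1, an actin-regulating protein, rose in both strains, by 0.44 (SE 0.12, adjusted p = 0.00637) in C57BL/6 and 1.13 (SE 0.13, adjusted p = 1.81e-05) in NOD. Il4i1, a secreted amino acid oxidase, rose in C57BL/6, by 0.42 (SE 0.12, adjusted p = 0.0077), and was at 0.23 (SE 0.12, adjusted p = 0.104) in NOD, all at levels under the lower quartile of the arrays. Anxa3, an annexin also abundant in neutrophils, fell in C57BL/6, at −1.002 (SE 0.12, adjusted p = 1.42e-05), and was at 0.12 (SE 0.14, adjusted p = 0.463) in NOD. Relt, a receptor of the TNF receptor family, fell, at −0.28 (SE 0.11) and −0.32 (SE 0.12). In C57BL/6 its call was lost without steady state replicate 4, at −0.24 (adjusted p = 0.117), without steady state replicate 5, at −0.24 (adjusted p = 0.122), and without PBS replicate 1, at −0.23 (adjusted p = 0.116). In NOD it was lost without PBS replicate 4, at −0.25 (adjusted p = 0.1). Slco5a1, an organic anion transporter, was at 0.14 (SE 0.17, adjusted p = 0.473) and −0.22 (SE 0.18, adjusted p = 0.319). Socs7, of the suppressors of cytokine signalling, fell, at −0.54 (SE 0.10) and −0.35 (SE 0.12) on its brightest probe set, while another of its 4 probe sets was called higher, at 0.77 and 0.54. Without NOD steady state replicate 1 Socs7 was not called in NOD, at −0.28 (adjusted p = 0.119).

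A list of 19 other genes of mature DCs was set beside the members. It was chosen with earlier results of these data known, so its counts are no independent test. In each strain 16 of the 19 rose, against 44.6% of all genes in C57BL/6 and 41.6% in NOD. The median difference was 2.08 in C57BL/6 and 2.01 in NOD, against 0.42 and 0.23 over the 9 members. Ccr7, the chemokine receptor that leads mature DCs to lymph nodes, rose by 4.13 (SE 0.14) and 4.22 (SE 0.16), the costimulatory Cd86 by 2.09 (SE 0.10) and 2.01 (SE 0.11), and Cd40 by 2.08 (SE 0.11) and 2.85 (SE 0.12). Cd274, the ligand of PD-1, rose by 4.40 (SE 0.10) and 4.84 (SE 0.14). The chemokine Ccl17, known from activated cDC2s, fell, at −2.29 (SE 0.23) and −1.52 (SE 0.16).

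**Figure D3:**
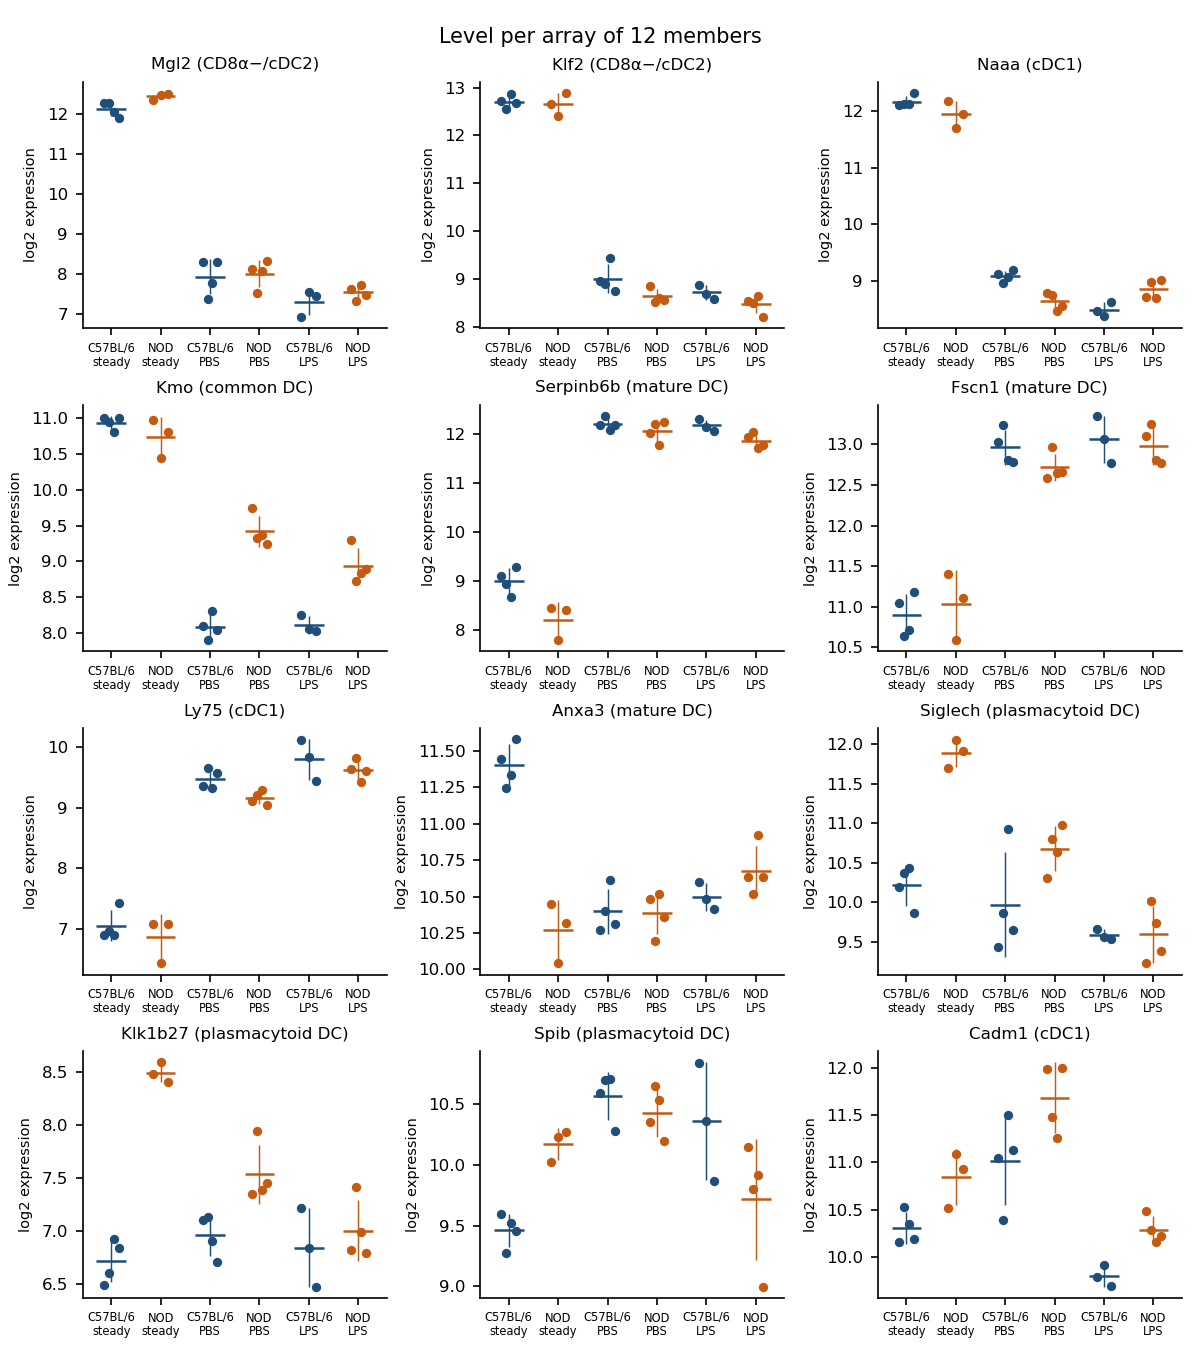
Log2 expression of 12 members on every array, by group, with C57BL/6 in blue and NOD in orange. Each point is an array, the horizontal line is the mean of the group and the vertical line its SD, and each panel has its own axis. Mgl2, Klf2 and Naaa are high at steady state in both strains, Serpinb6b, Fscn1 and Ly75 are high in culture, and Kmo stays higher in NOD culture. At steady state Siglech, Klk1b27 and Spib are higher in NOD than in C57BL/6.

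Whether the strains differed in their change in culture was tested as an interaction over the 15 steady state and PBS arrays. It was called with a larger value in NOD for 3 members, against 4.91% of all genes, and with a smaller value in NOD for 2, against 2.89%. The difference between the changes was 1.53 (SE 0.20, adjusted p = 1.41e-04) for Kmo, which fell less in NOD, 1.12 (SE 0.18, adjusted p = 8.68e-04) for Anxa3, and 0.69 (SE 0.17, adjusted p = 0.0288) for Marcksl1, which rose more in NOD. It was −1.21 (SE 0.21, adjusted p = 0.00194) for Klk1b27 and −0.85 (SE 0.18, adjusted p = 0.0111) for Spib. Anxa3, Klk1b27 and Spib differed between the strains at steady state and had come close together in PBS culture, or closer in the case of Klk1b27. The reverse was found for Kmo and Marcksl1, which were not called for a strain difference at steady state and were called for one in culture.

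Marcksl1 was at 12.73, 12.62, 12.51 and 12.91 in C57BL/6 and 12.97, 12.60 and 12.73 in NOD at steady state. In PBS culture it was at 13.24, 13.29, 13.02 and 13.00 in C57BL/6 and at 13.95, 13.93, 13.99 and 13.72 in NOD. Every NOD culture was above every C57BL/6 culture, and the strains had overlapped at steady state. The other 36 members were not called for this difference, among them all 7 CD8α−/cDC2 genes and all 8 cDC1 genes, and a value that misses the threshold does not show that the strains were equal. With the brightest probe set replaced by the mean over all probe sets of a gene, 8 members were called, with Gcsam at 1.04 (adjusted p = 0.0025), Fscn1 at −0.67 (adjusted p = 0.0583) and Dpp4 at −0.41 (adjusted p = 0.0976) in addition. With the replicate number as a block 3 were called, with Marcksl1 at 0.61 (adjusted p = 0.348) and Spib at −0.85 (adjusted p = 0.191), and 1.68% of all genes against 7.81%. In 1 fit of all 22 arrays Spib was not called either (adjusted p = 0.116).

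At steady state the strains were compared over 7 arrays, the same ones as in the culture comparisons. Of the 41 members 6 were higher in NOD, against 6.87% of all genes, and 4 were lower, against 8.35%. Plasmacytoid DC genes made up 5 of the 6 that were higher, with 1 of the 8 lower and 2 not called. None of the 7 CD8α−/cDC2 genes was called, with differences between −0.22 and 0.48. With the mean over the probe sets of a gene 15 members were called, and Notch4, at 0.46 (adjusted p = 0.00987), Mgl2, at 0.32 (adjusted p = 0.0804), Fscn1, at 0.26 (adjusted p = 0.0542), Etv6, at −0.22 (adjusted p = 0.0614), and Gcsam, at −0.91 (adjusted p = 0.00683), were the ones added. Of all genes 19.3% were called with that mean, against 15.2% with the brightest probe set. The 8 plasmacytoid DC genes had a median difference of 0.50, and all genes one of 0.03. A list of 11 other plasmacytoid DC genes had a median of 0.009, with 3 higher and 2 lower in NOD. A rise of plasmacytoid DC genes in general is therefore not shown. Both lists were chosen with earlier results of these data known.

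Klk1b27 had the largest difference. It was at 6.49, 6.60, 6.92 and 6.84 in C57BL/6 and at 8.47, 8.59 and 8.41 in NOD, 1.78 (SE 0.12, adjusted p = 5.97e-06). The kallikrein genes of this family are nearly identical in sequence, and the probe set may read others of them. Siglech was at 10.20, 10.37, 10.43 and 9.86 in C57BL/6 and at 11.69, 12.05 and 11.91 in NOD, 1.67 (SE 0.15, adjusted p = 4.03e-05). Spib was at 9.60, 9.28, 9.52 and 9.46 and 10.02, 10.23 and 10.27, 0.71 (SE 0.11, adjusted p = 0.00191). In all 3 genes each NOD array lay above each C57BL/6 array. The arrays of the strains did not overlap in 15 of the 41 members, and the share over all genes was not counted.

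Pacsin1 was higher in NOD by 0.63 (SE 0.09, adjusted p = 0.00107) and Cd7 by 0.36 (SE 0.11, adjusted p = 0.0646), while Ly6d was lower, at −0.60 (SE 0.15, adjusted p = 0.0279). Tcf4 was at 0.11 (SE 0.09, adjusted p = 0.491) and Bst1 at 0.17 (SE 0.10, adjusted p = 0.307). Of 11 other plasmacytoid DC genes 3 were higher, among them the chemokine receptor Ccr9 by 0.97 (SE 0.10), and 2 lower, among them Irf7 at −0.59 (SE 0.14). Bst2 was at −0.19 (SE 0.09, adjusted p = 0.257) and Tlr9 at 0.09 (SE 0.17, adjusted p = 0.774). None of 7 B cell genes was called, with a mean level between 7.90 and 8.35 in C57BL/6 and between 7.56 and 8.52 in NOD. Of 9 genes of NK and T cells 6 were lower in NOD and 1 higher, with a mean level between 9.23 and 9.46 in C57BL/6 and between 8.63 and 8.91 in NOD. A part of these cells in the differences of the members was not tested.

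The remaining calls were of other roles. Anxa3 was at 11.45, 11.24, 11.33 and 11.58 in C57BL/6 and 10.45, 10.04 and 10.32 in NOD, −1.13 (SE 0.12, adjusted p = 1.86e-04), and the strains did not overlap. Of 7 neutrophil genes 3 were lower in NOD and 1 higher, with a mean level between 8.05 and 8.40 in C57BL/6 and between 7.78 and 8.07 in NOD. The part of neutrophils in the value of Anxa3 was not tested. Serpinb6b, given above per array, was lower, at −0.79 (SE 0.18, adjusted p = 0.0186), Flt3 at −0.36 (SE 0.11, adjusted p = 0.0739), and Cadm1 was higher by 0.54 (SE 0.15, adjusted p = 0.0428). Of the 10 calls, 4 ended without single arrays. Without NOD replicate 4, Flt3 was at −0.32 (adjusted p = 0.199), Cadm1 at 0.41 (adjusted p = 0.151), Cd7 at 0.38 (adjusted p = 0.103) and Ly6d at −0.48 (adjusted p = 0.102). Flt3 also lost its call without C57BL/6 replicate 1 (−0.34), 4 (−0.35) or 6 (−0.31) or NOD replicate 1 (−0.32). Cadm1 lost it without C57BL/6 replicate 1 (0.49) or NOD replicate 6 (0.50). Cd7 lost it without C57BL/6 replicate 1 (0.38), 4 (0.31) or 5 (0.37) or NOD replicate 6 (0.27). Klk1b27, Siglech, Spib, Pacsin1, Anxa3 and Serpinb6b were called in each of these fits. With the replicate number as a block, Id2 was called in addition, at −0.36 (adjusted p = 0.0767), as were Itgae, at −0.51 (adjusted p = 0.0132), and Notch4, at 0.40 (adjusted p = 0.0814).

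Between the strains in PBS culture, 4 members were higher in NOD, against 5.43% of all genes, and 5 lower, against 5.28%. Kmo had the largest difference, 1.33 (SE 0.14, adjusted p = 1.52e-04). Marcksl1 was higher by 0.76 (SE 0.12, adjusted p = 0.00236), Cd7 by 0.61 (SE 0.14, adjusted p = 0.0226) and Klk1b27 by 0.57 (SE 0.16, adjusted p = 0.05). Lower in NOD were Flt3 at −0.74 (SE 0.15, adjusted p = 0.0125), Dpp4 at −0.73 (SE 0.16, adjusted p = 0.02), Ly6d at −0.84 (SE 0.22, adjusted p = 0.0398), Naaa at −0.44 (SE 0.11, adjusted p = 0.0404) and Tmem123 at −0.46 (SE 0.13, adjusted p = 0.0709). Flt3 was at 9.86, 9.63, 10.14 and 9.75 in C57BL/6 and 8.76, 9.11, 9.28 and 9.27 in NOD, so that the strains were apart on these arrays. Siglech was at 0.71 (SE 0.28, adjusted p = 0.183) and Spib at −0.14 (SE 0.14, adjusted p = 0.67). With the mean over probe sets Naaa was at −0.29 (adjusted p = 0.102) and Tmem123 at −0.39 (adjusted p = 0.11), both without a call. Of 7 B cell genes 2 were lower in NOD, with a mean level between 7.601 and 8.256 against 8.309 to 8.924 in C57BL/6. Of 9 genes of NK and T cells 4 were lower and none higher, and of 11 macrophage genes 4 were lower and 1 higher. The part of these cells in the differences of the members, Ly6d among them, was not tested. The calls of 4 members ended without single arrays. That of Tmem123 was lost without C57BL/6 replicate 1, 2 or 3 or NOD replicate 1, 3 or 4, with differences between −0.48 and −0.37. Naaa was at −0.39 (adjusted p = 0.12) without NOD replicate 3 and at −0.42 (adjusted p = 0.106) without NOD replicate 4. Ly6d was at −0.75 (adjusted p = 0.106) without C57BL/6 replicate 2 and at −0.80 (adjusted p = 0.11) without NOD replicate 3. Klk1b27 was at 0.56 and 0.49 without C57BL/6 replicate 3 or 4, and at 0.44 (adjusted p = 0.111) without NOD replicate 2. With the replicate number as a block, Cadm1 was called in addition, at 0.67 (adjusted p = 0.0915), as were Gcsam, at 0.35 (adjusted p = 0.073), and Cd1d1, at −0.43 (adjusted p = 0.0835).

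After LPS, 4 members were higher in NOD, against 5.21% of all genes, and 4 were lower, against 5.43%. Kmo was again higher, by 0.83 (SE 0.15, adjusted p = 0.00971), with 8.25, 8.05 and 8.03 in C57BL/6 and 9.30, 8.72, 8.83 and 8.89 in NOD. Marcksl1 was higher by 0.67 (SE 0.11, adjusted p = 0.00422), Batf3 by 0.62 (SE 0.16, adjusted p = 0.0509) and Cadm1 by 0.49 (SE 0.12, adjusted p = 0.0448). Flt3 was lower, at −0.87 (SE 0.15, adjusted p = 0.00721), Dpp4 at −0.69 (SE 0.11, adjusted p = 0.00452), Zbtb46 at −0.65 (SE 0.12, adjusted p = 0.00964) and Ly6d at −1.35 (SE 0.36, adjusted p = 0.0524). Of 7 B cell genes 1 was lower in NOD, with a mean level between 7.82 and 9.14 against 8.61 to 9.24 in C57BL/6, as were 4 of 9 genes of NK and T cells and 5 of 11 macrophage genes, and their part was not tested. Without NOD replicate 2 only 5 members were called, and 7.57% of all genes, against 10.6%. Batf3 was then at 0.62 (adjusted p = 0.112), Cadm1 at 0.49 (adjusted p = 0.102) and Ly6d at −1.28 (adjusted p = 0.133). These 3 also lost their calls without other arrays. Batf3 was at 0.59 and 0.50 without C57BL/6 replicate 3 or 4 and at 0.53 without NOD replicate 3. Cadm1 was at 0.48 and 0.43 without C57BL/6 replicate 2 or 4, and Ly6d at −1.30 and −1.12 without C57BL/6 replicate 2 or 3. With the replicate number as a block, Wdfy4 was called in addition, at −0.47 (adjusted p = 0.0536), as were Spib, at −0.79 (adjusted p = 0.0303), Tmem123, at −0.55 (adjusted p = 0.0904), and Naaa, at 0.41 (adjusted p = 0.0826).

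**Figure D4:**
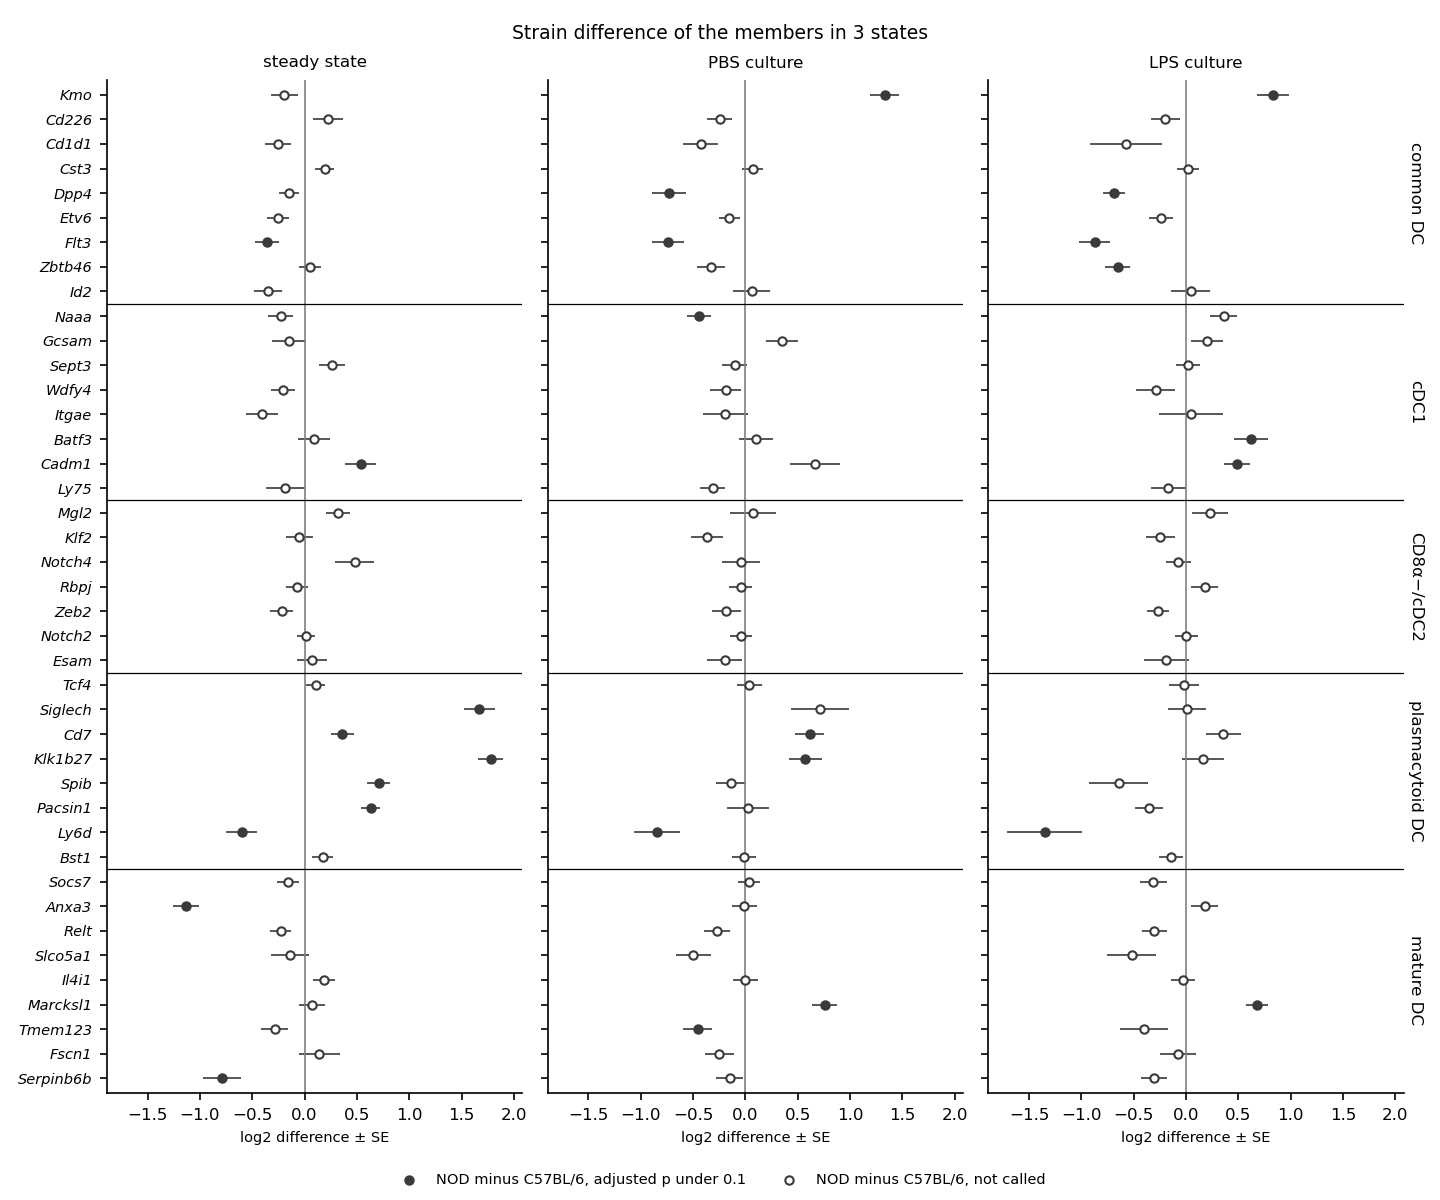
Log2 difference between NOD and C57BL/6, with its SE, for each of the 41 members by role at steady state, in PBS culture and in LPS culture. Filled points were called, and values above 0 are higher in NOD. At steady state the plasmacytoid DC genes Siglech, Klk1b27 and Spib lie above 0, at 1.67, 1.78 and 0.71. Anxa3, Serpinb6b and the plasmacytoid DC gene Ly6d lie below 0 there, at −1.13, −0.79 and −0.60. In both cultures Kmo and Marcksl1 lie above 0 and Flt3, Dpp4 and Ly6d below it.

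The last comparison asked how LPS changed cells that were already in culture, with PBS culture of the same strain as control. These PBS arrays are those of the culture comparison. In C57BL/6 no member rose, against 0.945% of all genes, and 2 fell, against 0.868%. In NOD 2 rose, against 1.93% of all genes, and 5 fell, against 2.46%. At an unadjusted p under 0.05 by limma there were 9 members in C57BL/6, 5 higher and 4 lower, and 13 in NOD, 3 higher and 10 lower. The share of all genes at that limit was not counted, so these numbers have no background beside them. None of the 9 mature DC genes was called in either strain, and their differences lay between −0.31 and 0.30 in C57BL/6 and between −0.34 and 0.29 in NOD.

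Cadm1 was called in both strains. It was at 11.05, 10.39, 11.50 and 11.13 in PBS and 9.79, 9.92 and 9.69 in LPS culture in C57BL/6, and at 11.99, 11.48, 11.26 and 12.001 and 10.49, 10.29, 10.16 and 10.22 in NOD. In each strain every LPS array lay below every PBS array, and Cadm1 fell, at −1.22 (SE 0.23, adjusted p = 0.0517) in C57BL/6 and −1.39 (SE 0.17, adjusted p = 0.00226) in NOD. Its other 3 probe sets fell too, at between −1.55 and −2.05 in C57BL/6 and between −1.72 and −1.86 in NOD. The call in C57BL/6 was lost in 5 of the 7 fits that left out 1 array, with a difference of −1.20 without PBS replicate 1, −1.18 without PBS replicate 4, −1.21 without LPS replicate 2, −1.28 without LPS replicate 3 and −1.16 without LPS replicate 4.

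Naaa fell in C57BL/6, at −0.59 (SE 0.12, adjusted p = 0.0713), and was at 0.21 (SE 0.12, adjusted p = 0.544) in NOD, but its other 2 probe sets were at −0.14 and −0.02 in C57BL/6 and were not called. The call of Naaa was lost in 6 of the 7 fits without 1 array, all but the one without PBS replicate 2, with differences between −0.66 and −0.53. In NOD Batf3 rose, by 0.89 (SE 0.16, adjusted p = 0.0169), from 8.85, 9.61, 9.29 and 9.20 to 9.90, 10.12, 10.39 and 10.09, with no overlap. Ly75 rose further, by 0.46 (SE 0.11, adjusted p = 0.0675). Siglech fell, at −1.09 (SE 0.19, adjusted p = 0.0131), from 10.30, 10.80, 10.63 and 10.98 to 9.22, 10.02, 9.74 and 9.38. Pacsin1 fell, at −0.71 (SE 0.15, adjusted p = 0.0342), Dpp4 at −0.51 (SE 0.10, adjusted p = 0.0235) and Cd7 at −0.46 (SE 0.11, adjusted p = 0.0684). The call of Ly75 was lost in 6 of the 8 fits without 1 array, all but those without PBS replicate 3 or LPS replicate 3, with differences between 0.39 and 0.48. That of Cd7 was lost in 7 of the 8, all but the one without PBS replicate 1, with differences between −0.50 and −0.40. With the replicate number as a block 11 members were called in NOD, 2 higher and 9 lower, with Kmo at −0.48 (adjusted p = 0.0187), Mgl2 at −0.47 (adjusted p = 0.0614), Spib at −0.72 (adjusted p = 0.0344) and Klk1b27 at −0.53 (adjusted p = 0.0131) in addition. Of all genes 10.4% were called in NOD with the block, against 4.4% without it. In C57BL/6 the block added Ly6d, at 0.88 (adjusted p = 0.0491).

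Of the 19 other mature DC genes 1 rose and 1 fell in C57BL/6, and 6 rose in NOD. Of all genes 0.945% rose and 0.868% fell in C57BL/6, and 1.93% and 2.46% in NOD. The median difference of the 19 was 0.19 in C57BL/6 and 0.17 in NOD. No gene of this list, of the other CD8α− DC genes or of the macrophage genes was called for a difference between the strains in this change. Cd80 rose in both, by 1.02 (SE 0.16) and 1.009 (SE 0.19), and Ccl17 was at 0.96 (SE 0.29, adjusted p = 0.219) in C57BL/6 and 1.02 (SE 0.14, adjusted p = 0.00504) in NOD. Ccr7 was at 0.19 (SE 0.16, adjusted p = 0.747) and 0.17 (SE 0.14, adjusted p = 0.735). Of the 12 other CD8α− DC genes 1 fell in C57BL/6 and 6 in NOD. Clec10a fell in both, at −1.10 (SE 0.18) and −1.27 (SE 0.12). Of 11 macrophage genes 3 fell in C57BL/6 and 6 in NOD, with a mean level in LPS culture between 11.7 and 11.8 in C57BL/6 and between 11.4 and 11.5 in NOD, and their part in these differences was not tested.

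**Figure D5:**
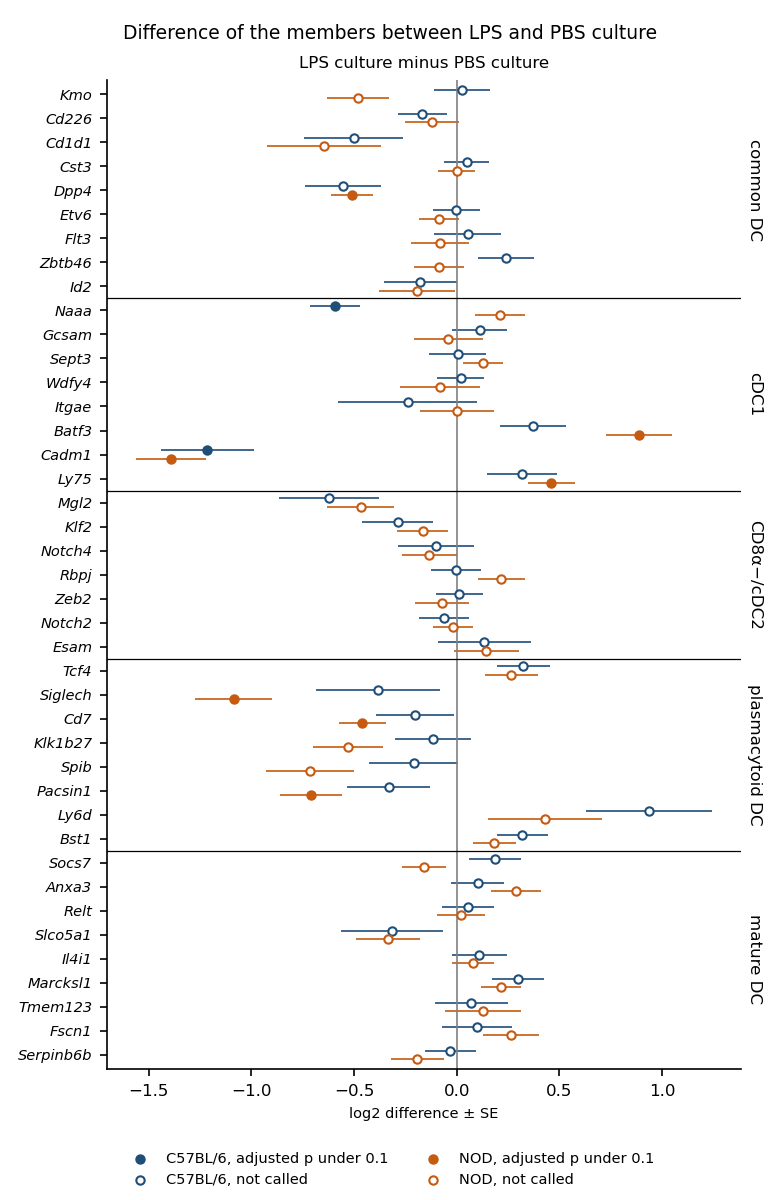
Log2 difference between LPS and PBS culture, with its SE, for each of the 41 members by role in C57BL/6 (blue) and NOD (orange). Filled points were called. Most members lie near 0, and Cadm1 lies lowest in both strains, at −1.22 and −1.39.

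The difference between the strains in their change with LPS was tested over the 15 cultured arrays. No member was called by limma in either direction, against 0.0165% of all genes higher and 0.0055% lower. An unadjusted p under 0.05 was found for 4 members, and the share of all genes at that limit was not counted. Among the members the lowest adjusted p was 0.31, for Naaa, at 0.80 (SE 0.16). Batf3 was at 0.52 (SE 0.24) and Siglech at −0.70 (SE 0.38). A call in NOD and not in C57BL/6 is therefore not shown to be a difference between the strains for any of the 41 members.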

How the data were processed

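RNA of sorted CD11c+CD8α− pancreatic DCs was amplified by NuGEN Ovation Pico WTA and hybridised to Affymetrix mouse genome arrays. The authors deposited a log2 value for each probe set and array after RMA, run in BRB-ArrayTools (version not given in the sources used here), with quantile normalization and no pooling of arrays. RMA gives no call of detection, and quantile normalization removes any change shared by all genes. Of 45101 probe sets, 64 controls were left out and 45037 tested. The platform annotation names 1 gene for 34945 of the tested probe sets, several for 932 and none for 9160, and 99.42% of the former were matched by Entrez identifier to current symbols. For each comparison limma 3.58.1 (R 4.3.3) was run on the groups compared alone, and for the interactions on 15 arrays each. The authors' methods name a permutation test with a false discovery rate of 10%, and the threshold of 0.1 follows it. Counts over all genes use 1 probe set for each of the 18193 genes.

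Groups were taken from the sample labels. The array number limits the precision, and since the sources do not state for the arrays that replicates came from separate pools, the p-values measure only the spread between these samples, which may be technical. In the strain and LPS comparisons the residuals of same-numbered samples had weak to moderate positive correlations, between 0.109 and 0.487. The replicate number was tried as a block in every comparison, and within each strain for the interactions. Per-array values are given for up to 3 members of each role with the largest culture difference called in both strains, up to 5 with the largest steady state strain difference, those called for LPS in both strains, and those called in an interaction. Ly75, Flt3 in PBS culture and Batf3 with LPS in NOD are given per array outside this rule. The members, the other lists and the marker lists were chosen with earlier results of these data known. Alternatives were a threshold of 0.05, a filter on the dimmer 50% of the probe sets, 1 fit of all 22 arrays, centring of the arrays, a trended and robust spread, the mean over probe sets, the block, and leaving out each array in turn. The scripts were tested on simulated data.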

Additional observations from a re-analysis of the deposited data

Results flagged for a closer look

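In groups of 4 arrays, 1 array was set far apart from the other 3 in 6 of 164 cases tested, where chance gives about 1 in 20. The value given is the gap to the nearest array as a share of the range of the group. In C57BL/6 at steady state it was replicate 6 each time. Cst3 lay at 14.24 against 14.38 to 14.41 (0.848), Dpp4 at 10.07 against 9.84 to 9.86 (0.931), Ly75 at 7.43 against 6.90 to 6.97 (0.862) and Naaa at 12.33 against 12.11 to 12.14 (0.878). In NOD PBS culture Klk1b27 lay at 7.94 in replicate 2 against 7.35 to 7.45 (0.833). In NOD LPS culture Tcf4 lay at 12.03 in replicate 3 against 11.53 to 11.57 (0.925).

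The change in PBS culture differed between the strains, by limma's interaction term, in 5 members. The value in NOD minus that in C57BL/6 was 1.53 for Kmo, 1.12 for Anxa3, 0.687 for Marcksl1, −0.848 for Spib and −1.21 for Klk1b27.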

How the results depend on the processing

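Of 108 differences of members that were called, 78 kept their call and direction under every alternative, 28 lost the call in at least 1, of which 3 only when an array was left out, and 2, Cadm1 in culture in both strains, turned in direction. The number of members called at steady state was 6 in 1 fit of all 22 arrays, against 10, and 7 to 14 when each array was left out in turn. Of all genes 11.9% were called in that fit, against 15.2%. In culture the number of members called was 33 to 36 in C57BL/6 and 29 to 35 in NOD without 1 array, of which 18 to 20 and 20 to 21 by at least 2-fold. For LPS in C57BL/6, 2 members were called, against 0 at an adjusted p under 0.05, 4 in the fit of all arrays, 1 with the mean over probe sets and 0 to 2 without 1 array, with 0 without PBS replicate 1 or 4 or any LPS replicate and 1 without PBS replicate 3. Of all genes 1.81% were called for LPS in C57BL/6, against 4.93% in the fit of all arrays and 2.75% with the mean over probe sets. For LPS in NOD, 7 members were called, against 11 with the replicate block and 5 to 8 without 1 array. Of all genes 4.4% were called for LPS in NOD, against 10.4% with the block. The strain difference gave 6 to 10 in PBS and 5 to 9 in LPS culture, with 5 without NOD LPS replicate 2, the interaction with culture 5 to 7 and that with LPS 0 to 0. The interaction with culture gave 8 with the mean over probe sets and 3 with the replicate block, without Spib (adjusted p = 0.191) and Marcksl1 (adjusted p = 0.348). With the mean over probe sets Cadm1 turned to −0.45 (adjusted p = 0.0526) in C57BL/6 culture and to −0.047 (adjusted p = 0.859) in NOD culture, and Zbtb46 to −0.28 (adjusted p = 0.0286) in NOD culture. At steady state that mean gave 15 members, and 19.3% of all genes, against 15.2%. Numbers were not shown to pair the samples between steady state and culture, where only 2 are shared per strain (correlations between −0.0328 and 0.277). The block changed no call other than those given with the results. The cause of these shifts was not tested.

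Without a call of detection, levels near the lower quartile of an array, as those of Gcsam, Cd226 and Il4i1, bound the size of a fall poorly. Of the 41 members 23 have several probe sets, and 4 had probe sets called in opposite directions in culture in C57BL/6 (Cadm1, Notch4, Socs7 and Zbtb46) and 3 in NOD (the first 3 of these).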
